A study of Homo sapiens with 12 samples.

Results

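The genes described here encode the chains of collagens and laminins, the large structural proteins of the extracellular matrix. They were chosen by symbol alone, as every row of the count tables named COL, a number, A and a number, or LAM, A, B or C and a number. 56 of the 36762 genes met that rule, 44 collagen chains and 12 laminin chains, and no measured value is part of it. Bulk RNA sequencing had been carried out on the UCLA1 human embryonic stem cell line at 2 stages, incipient mesoderm-like cells (iMeLC), an early step on the way to primordial germ cell-like cells, and the undifferentiated stem cells (hESC). The 4 groups, with 3 libraries in each, were CDKO iMeLC, CTRL iMeLC, CDKO hESC and CTRL hESC, where CDKO lines carried a knockout of the catalytic domain of TET1, an enzyme that oxidises methylated cytosine in DNA, and CTRL lines were the controls. All groups derived from UCLA1, so the lines of a group were sublines of a single parental line and not separate donors.

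Collagens are trimers of alpha chains wound into a triple helix. Fibrillar collagens assemble into the cables of connective tissue, basement membrane collagens into the sheet on which epithelia rest, and other families coat fibrils, form beaded filaments or span the cell membrane. Laminins are trimers of an alpha, a beta and a gamma chain, which seed the basement membrane and are bound by integrins, and laminin is also used as the culture substrate of human stem cells. Collagen chains are hydroxylated and folded in the endoplasmic reticulum, trimmed after secretion and crosslinked outside the cell. During the passage of the epiblast to mesoderm, cells leave a laminin-rich basement membrane and begin to make an interstitial matrix.

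The members were sorted by family into 11 fibrillar collagen chains, 8 basement membrane collagen chains, 12 laminin chains, 10 fibril-associated collagen chains, 10 chains of beaded filament, short-chain and anchoring collagens, and 5 transmembrane and other collagen chains. All 56 matched exactly 1 gene of GENCODE release 29 (GRCh38), and each was protein coding. Exons of 14 of them overlap exons of a gene on the other strand (COL4A2, COL4A3, COL5A3, COL9A1, COL9A3, COL15A1, COL16A1, COL18A1, COL19A1, LAMA1, LAMA2, LAMA4, LAMA5 and LAMB1), and their counts are uncertain because no source used here states the strand setting. Values are given as CPM (the count relative to the library total after TMM scaling, on 1 scale for all 12 libraries) or, where genes are compared with each other, as RPKM (that CPM per 1000 bases of merged exon). The iMeLC libraries are named by line and their values are given in the order CDKO1102, CDKO1105 and CDKO1312, then CTRL1101, CTRL1106 and CTRL1109. The hESC libraries carry numbers 1 to 3 that name no line. Library totals lay between 52121702 and 109479071 counts in iMeLC and between 12517593 and 18855099 counts in hESC, so low values are less precise in hESC, and stage coincided with the table, its date and its depth and cannot be told apart from them. In bulk samples fewer cells of a type and less RNA per cell cannot be told apart. TET1 itself, summed over the whole gene, stood at 325, 356 and 304 CPM in CDKO iMeLC and 288, 322 and 293 CPM in CTRL iMeLC and 375, 396 and 335 CPM in CDKO hESC and 290.4, 339 and 304 CPM in CTRL hESC, and a total over all TET1 exons checks nothing about the loss of its catalytic part. Undifferentiated stem cell markers (11 genes, POU5F1, SOX2 and LIN28A among them) summed to 6755 to 8464 CPM in iMeLC and 11292 to 13505 CPM in hESC, and TBXT, the primitive streak factor, stood at 72.5, 75.9 and 30 CPM in CDKO iMeLC and 51.5, 11.6 and 112 CPM in CTRL iMeLC, against 1.01, 2.87 and 5.33 CPM in CDKO hESC and 2.36, 0.354 and 0.459 CPM in CTRL hESC.

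Promoter sequence is shown for 4 members, because TET1 acts at methylated CpG. Only COL7A1 among them was called between genotypes by edgeR with all libraries of a stage. No promoter window was at hand for LAMC3, the member called between genotypes at both stages. LAMB1 and LAMB2 are alternative beta chains that moved in opposite directions with stage, COL7A1 was called lower in CDKO hESC, and COL4A5 shares a promoter region with COL4A6. The bases are from RefSeq (GRCh38.p14), 5′ to 3′ on the strand of the gene, upstream of the start, with exon bases of GENCODE release 29 left out and each CG in capitals.
COL7A1, chr3:48595330-48595579, minus strand: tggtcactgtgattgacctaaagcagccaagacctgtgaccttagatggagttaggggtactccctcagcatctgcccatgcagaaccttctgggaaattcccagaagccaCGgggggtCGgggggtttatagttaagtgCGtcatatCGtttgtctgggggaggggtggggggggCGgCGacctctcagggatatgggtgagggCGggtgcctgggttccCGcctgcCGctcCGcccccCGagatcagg
LAMB1, chr7:108003256-108003411, minus strand: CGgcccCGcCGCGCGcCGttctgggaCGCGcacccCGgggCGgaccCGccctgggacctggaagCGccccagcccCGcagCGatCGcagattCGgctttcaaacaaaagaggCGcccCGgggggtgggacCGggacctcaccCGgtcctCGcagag
LAMB2, chr3:49133119-49133300, minus strand: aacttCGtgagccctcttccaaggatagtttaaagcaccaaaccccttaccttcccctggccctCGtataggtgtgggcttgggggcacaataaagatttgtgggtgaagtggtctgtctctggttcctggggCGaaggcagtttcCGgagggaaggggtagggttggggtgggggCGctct
COL4A5, chrX:108439588-108439837, plus strand: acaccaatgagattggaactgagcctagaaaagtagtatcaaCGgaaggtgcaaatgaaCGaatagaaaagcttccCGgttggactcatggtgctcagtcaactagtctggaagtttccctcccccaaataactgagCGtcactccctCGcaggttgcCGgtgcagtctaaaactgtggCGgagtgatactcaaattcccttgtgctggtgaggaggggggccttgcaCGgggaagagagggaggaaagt
The LAMB1 stretch of 156 bases held 21 CG and the LAMB2 stretch of 182 bases held 5. In the full 250 bases before the start, exon bases included, LAMB1 had 28 CG and LAMB2 12. COL7A1 and COL4A5 had 11 and 8 in 250 bases. RefSeq windows of 250 bases before a start were at hand for 41 of the 56 members, 55 windows in all. Their median was 12 CG, against 11 over all 35116 windows of that length, and 58.2% of member windows held at least 10 CG, against 52.2% of all. The GC box GGGCGG, searched on both strands and free to overlap a CG, was present in 58.2% of member windows and in 42.6% of all windows. Such matches describe the letters only, and no methylation or binding was measured here. Paired genes also lie head to head: the RefSeq starts of COL4A1 and COL4A2 are 127 bases apart, those of COL4A6 and COL4A5 380 bases, and those of COL4A4 and COL4A3 419 bases.

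In iMeLC the matrix genes were led per length by COL18A1, a basement membrane collagen and the source of endostatin, at 126 ± 12 RPKM in CDKO and 106 ± 47.7 RPKM in CTRL (SD, n = 3 each). In hESC the leader was COL6A1, a chain of beaded filaments, at 43.5 ± 2.91 RPKM in CDKO and 40.7 ± 5.54 RPKM in CTRL. Behind COL18A1 in CDKO iMeLC came LAMB1 (55.3 ± 3.27 RPKM), COL6A2 (51.5 ± 1.32), LAMC1 (50.7 ± 1.25) and COL6A1 (49.5 ± 1.99), which differed by little more than their SDs. In CTRL iMeLC the next in order were COL6A1 (53.6 ± 15.3 RPKM), COL6A2 (49.9 ± 15), LAMC1 (42.7 ± 6.8), COL1A1 (34.9 ± 22.2) and LAMB1 (31.9 ± 6.07), where neighbours in the order overlapped within their SDs. Behind COL6A1 in CDKO hESC came LAMC1 (26.3 ± 1.97 RPKM), COL18A1 (22.4 ± 2.92), COL6A2 (21.8 ± 4.18) and LAMA5 (19.7 ± 1.13), and in CTRL hESC LAMC1 (26.1 ± 2.78 RPKM), COL18A1 (25.8 ± 2.7), LAMA5 (24.1 ± 2.55) and COL6A2 (20.6 ± 1.4). Neighbours in these hESC orders after COL6A1 overlapped within their SDs. Behind the leaders, the order depended on the gene length used. With the longest transcript in place of merged exons, COL4A1 rose from rank 7 to 4 in CDKO iMeLC (67.3 RPKM), where LAMC1 fell from rank 4 to 8. In CTRL iMeLC COL4A2 rose from rank 11 to 4 (51 RPKM).

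Summed per length, the chains came to 617, 579 and 623 RPKM in CDKO iMeLC and 658, 439 and 466 RPKM in CTRL iMeLC, against 240, 230.3 and 259 RPKM in CDKO hESC and 252, 262 and 237 RPKM in CTRL hESC. The 6 iMeLC libraries all lay above the 6 hESC libraries. The make-up differed as well. Basement membrane collagens took 29.7% ± 2.6 of the sum in CDKO iMeLC and 27.8% ± 4.17 in CTRL iMeLC, against 14.7% ± 1.26 in CDKO hESC and 15.9% ± 0.762 in CTRL hESC (SD, n = 3 each). Laminin chains took 24.6% ± 0.12 in CDKO iMeLC and 23.6% ± 3.28 in CTRL iMeLC, against 34.3% ± 1.73 in CDKO hESC and 34.9% ± 1.15 in CTRL hESC. The laminin share was lower in iMeLC although the laminin sum was higher. That sum was 149 ± 5.36 RPKM in CDKO iMeLC and 121 ± 15.3 RPKM in CTRL iMeLC, against 83.4 ± 3.77 RPKM in CDKO hESC and 87.4 ± 1.55 RPKM in CTRL hESC. Fibrillar chains took 19.3% ± 2.85 in CDKO iMeLC and 15% ± 3.43 in CTRL iMeLC, against 12.6% ± 1.05 in CDKO hESC and 12.4% ± 1.6 in CTRL hESC. Laminins were thus the class with the highest sum in hESC, on either measure of gene length. Basement membrane collagens had the highest mean in iMeLC, also on either measure. COL18A1 alone gave 126 RPKM of that class's mean of 180.4 RPKM in CDKO iMeLC, and 106 of 148 RPKM in CTRL iMeLC. In CTRL1109 iMeLC the beaded filament, short-chain and anchoring class was higher, at 153 RPKM against 112 RPKM.

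**Figure D1:**
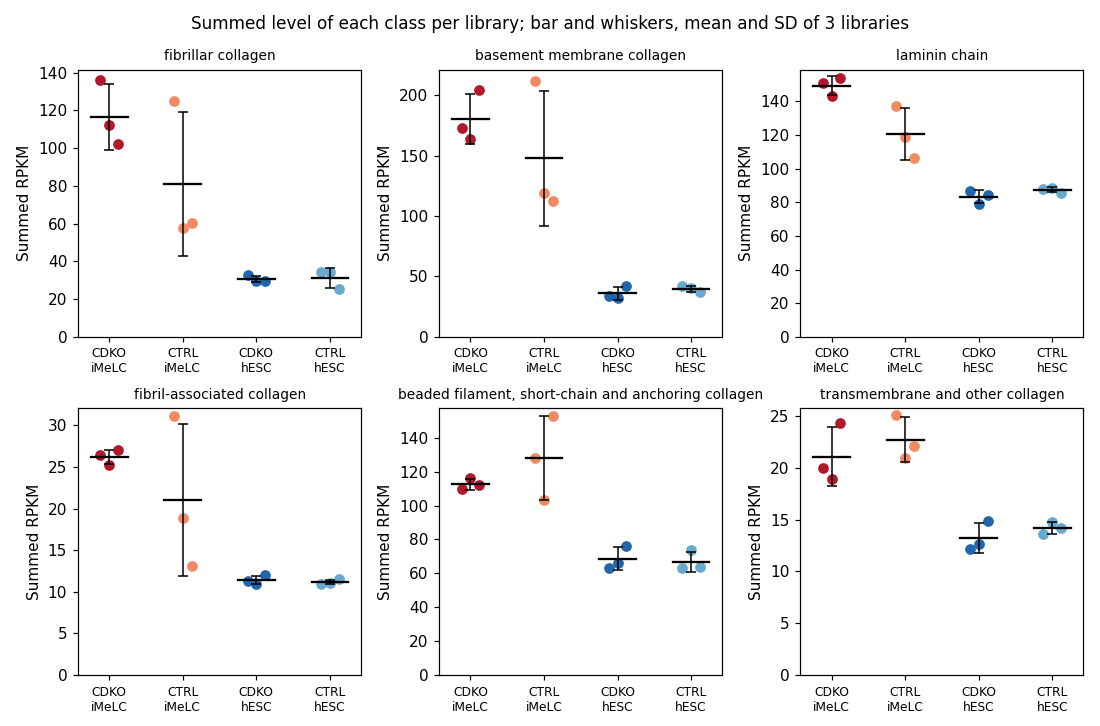
Summed level of each class (RPKM, vertical axis from 0) in each library, by group, with the mean and SD of 3 libraries. Basement membrane collagens lay between 112 and 212 RPKM in the iMeLC libraries and between 31.7 and 42.2 RPKM in the hESC libraries.

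Stage was compared within each genotype by edgeR's quasi-likelihood test over all 12 libraries, adjusted over 20262 genes by Benjamini-Hochberg, and a gene was called where the adjusted p was under 0.05. In CDKO lines 26 of 54 members tested were higher and 7 lower in iMeLC than in hESC. Over all genes tested, 32.1% were higher and 27.7% lower (59.8% either way), against 48.1% and 13% of the members. In CTRL lines 28 members were higher and 8 lower, 51.9% and 14.8%, where over all genes 29.5% were higher and 19.9% lower (49.4% either way). The median log2 fold change of the members was 0.73 in CDKO lines and 0.77 in CTRL lines, beside medians of -0.08 and -0.01 over all genes tested. The same 24 members were higher in both genotypes and the same 7 lower in both. COL15A1 and COL4A6 passed as higher in CDKO lines alone, and COL17A1, COL27A1 and LAMB3 were among those higher in CTRL lines alone, where COL4A3 was lower. The interaction test, described after the genotype comparisons, called none of these differences. The labels place the same lines at both stages, and these fits treat the 12 libraries as independent. CTRL1101 iMeLC stood apart from the other CTRL iMeLC libraries in several matrix genes. CDKO hESC 3 stood apart in its sum of endoderm markers, at 511 CPM against 45.9 and 61.5 CPM in CDKO hESC 1 and 2. Without both libraries, 26 of 55 members were higher and 7 lower in CDKO lines (30.4% and 25.8% of all genes). In CTRL lines 29 were higher and 9 lower (27.8% and 17.7% of all genes).

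**Figure D2:**
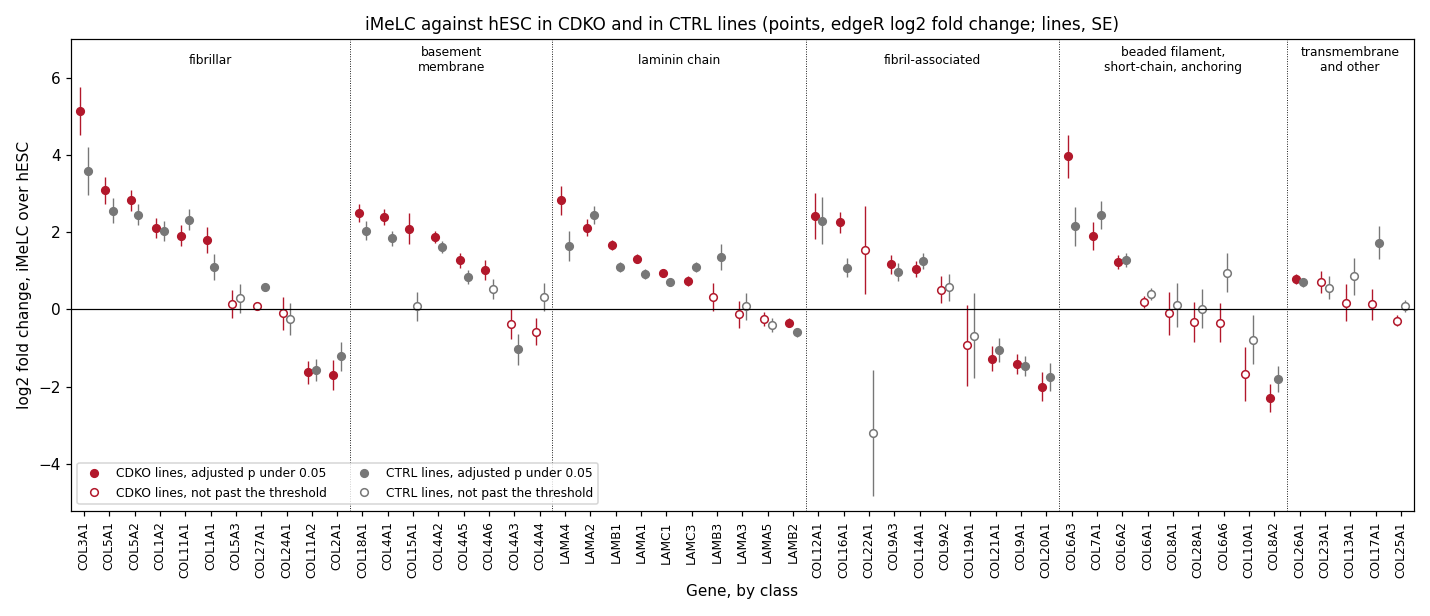
Log2 fold change, iMeLC over hESC, of the members tested (vertical axis), by class along the horizontal axis, in CDKO lines (red) and CTRL lines (grey), with SE as lines and filled points for an adjusted p under 0.05. COL3A1 had the highest value in both genotypes, 5.14 in CDKO lines and 3.58 in CTRL lines.

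Among fibrillar collagens, 6 of 11 chains were higher and 2 lower in CDKO iMeLC, and 7 higher and 2 lower in CTRL iMeLC, than in the hESC of the same genotype. Beside these counts, 32.1% of all genes were higher and 27.7% lower in CDKO lines, and 29.5% and 19.9% in CTRL lines. COL1A1, COL1A2, COL3A1, COL5A1, COL5A2 and COL11A1 were higher in both genotypes, and those that fell in both genotypes were COL2A1 and COL11A2, chains of the cartilage collagens II and XI. COL3A1, the type III chain of pliable tissues, stood at 166, 115 and 79.9 CPM in CDKO iMeLC and 46.3, 13.6 and 20.7 CPM in CTRL iMeLC, against 3.54, 3.6 and 3.07 CPM in CDKO hESC and 5.06, 1.31 and 0.55 CPM in CTRL hESC. For COL3A1, all 6 iMeLC libraries lay above all 6 hESC libraries. COL3A1 had log2 fold changes of 5.14 in CDKO lines (SE 0.62, adjusted p = 1.15e-05) and 3.58 in CTRL lines (SE 0.61, adjusted p = 0.000294). The CTRL value of COL3A1 was 2.9 without CTRL1101 iMeLC (adjusted p = 0.000662) and 4.89 without CTRL hESC 1 (adjusted p = 4.02e-05). COL5A1, a chain of the type V collagen that seeds fibrils, stood at 142, 119 and 141 CPM in CDKO iMeLC and 153, 51.4 and 85.5 CPM in CTRL iMeLC, against 14.7, 13.4 and 19.3 CPM in CDKO hESC and 21.7, 12.5 and 15.1 CPM in CTRL hESC. For COL5A1, all 6 iMeLC libraries lay above all 6 hESC libraries. COL5A1 had log2 fold changes of 3.08 in CDKO lines (SE 0.34, adjusted p = 4.62e-06) and 2.56 in CTRL lines (SE 0.33, adjusted p = 2.65e-05). Its partner COL5A2 stood at 113, 86.9 and 113 CPM in CDKO iMeLC and 56.7, 34.9 and 67.7 CPM in CTRL iMeLC, against 14, 15.1 and 15.2 CPM in CDKO hESC and 11.2, 12.4 and 5.69 CPM in CTRL hESC. For COL5A2, all 6 iMeLC libraries lay above all 6 hESC libraries. COL5A2 had log2 fold changes of 2.82 in CDKO lines (SE 0.27, adjusted p = 1.54e-06) and 2.45 in CTRL lines (SE 0.27, adjusted p = 7.56e-06). 

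The type I chains, the main collagen of skin and bone, had smaller fold changes than COL3A1, COL5A1 and COL5A2. COL1A1 stood at 512, 437 and 344 CPM in CDKO iMeLC and 593, 239.6 and 194 CPM in CTRL iMeLC, against 149, 114 and 109.7 CPM in CDKO hESC and 175, 184 and 122 CPM in CTRL hESC. For COL1A1, all 6 iMeLC libraries lay above all 6 hESC libraries. COL1A1 had log2 fold changes of 1.79 in CDKO lines (SE 0.34, adjusted p = 0.000599) and 1.1 in CTRL lines (SE 0.34, adjusted p = 0.016). COL1A2 stood at 256, 222 and 199.6 CPM in CDKO iMeLC and 274, 140.2 and 121 CPM in CTRL iMeLC, against 50.8, 54 and 52.5 CPM in CDKO hESC and 50.1, 48.1 and 33 CPM in CTRL hESC. For COL1A2, all 6 iMeLC libraries lay above all 6 hESC libraries. COL1A2 had log2 fold changes of 2.11 in CDKO lines (SE 0.26, adjusted p = 1.43e-05) and 2.03 in CTRL lines (SE 0.26, adjusted p = 2.50e-05). The call of COL1A1 in CTRL lines rested on CTRL1101 iMeLC and on CTRL hESC 3: without the first library it was 0.4 (adjusted p = 0.114) and without the second 0.97 (adjusted p = 0.0603). Per length, the ratio of COL1A1 to COL1A2 was 2.15 ± 0.17 in CDKO iMeLC and 2.08 ± 0.338 in CTRL iMeLC, against 2.7 ± 0.543 in CDKO hESC and 4.17 ± 0.196 in CTRL hESC (SD, n = 3 each).

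COL11A1, a type XI chain, stood at 11.5, 10.7 and 10 CPM in CDKO iMeLC and 18.2, 17.3 and 13 CPM in CTRL iMeLC, against 1.59, 4.04 and 2.82 CPM in CDKO hESC and 3.79, 2.53 and 3.39 CPM in CTRL hESC. For COL11A1, all 6 iMeLC libraries lay above all 6 hESC libraries. COL11A1 had log2 fold changes of 1.91 in CDKO lines (SE 0.27, adjusted p = 4.93e-05) and 2.32 in CTRL lines (SE 0.27, adjusted p = 1.02e-05). COL11A2, another type XI chain, went the opposite way, at 2.03, 1.55 and 0.854 CPM in CDKO iMeLC and 1.92, 1.83 and 1.46 CPM in CTRL iMeLC, against 4.84, 3.84 and 4.92 CPM in CDKO hESC and 4.23, 5.05 and 6.19 CPM in CTRL hESC. For COL11A2, all 6 iMeLC libraries lay below all 6 hESC libraries. COL11A2 had log2 fold changes of -1.62 in CDKO lines (SE 0.3, adjusted p = 0.000443) and -1.57 in CTRL lines (SE 0.29, adjusted p = 0.000601). COL2A1, the cartilage chain, stood at 3.72, 2.84 and 3.85 CPM in CDKO iMeLC and 6.33, 3.93 and 1.55 CPM in CTRL iMeLC, against 11.1, 10.5 and 11.9 CPM in CDKO hESC and 11.2, 9.04 and 7.11 CPM in CTRL hESC. For COL2A1, all 6 iMeLC libraries lay below all 6 hESC libraries. COL2A1 had log2 fold changes of -1.69 in CDKO lines (SE 0.38, adjusted p = 0.00189) and -1.21 in CTRL lines (SE 0.37, adjusted p = 0.0162). Without CTRL hESC 1 the CTRL value was -1.01 (adjusted p = 0.0665). COL27A1, a fibrillar chain of developing cartilage, was the only fibrillar chain called in CTRL lines alone, at 84.1, 82.3 and 98.8 CPM in CDKO iMeLC and 102, 84.6 and 104 CPM in CTRL iMeLC, against 80.9, 81.8 and 85.6 CPM in CDKO hESC and 65.9, 68.2 and 60.4 CPM in CTRL hESC. For COL27A1, the iMeLC libraries overlapped the hESC libraries in CDKO lines and lay above them in CTRL lines. COL27A1 had log2 fold changes of 0.1 in CDKO lines (SE 0.1, adjusted p = 0.417) and 0.58 in CTRL lines (SE 0.1, adjusted p = 0.000299). COL5A3 and COL24A1 passed in neither genotype, with group means of 3.85 to 4.73 CPM and 1.1 to 1.41 CPM.

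Among basement membrane collagens, 6 of 8 chains were higher and none lower in CDKO lines (32.1% and 27.7% of all genes). In CTRL lines 4 were higher and 1 lower (29.5% and 19.9% of all genes). COL4A1 and COL4A2, the paired type IV chains found in nearly all basement membranes, led with COL18A1. COL4A1 (chromosome 13, 110148963 to 110307233, minus strand) stood at 463, 351 and 521 CPM in CDKO iMeLC and 389, 232 and 269 CPM in CTRL iMeLC, against 79.4, 70.7 and 104 CPM in CDKO hESC and 81.3, 88.9 and 78.9 CPM in CTRL hESC. For COL4A1, all 6 iMeLC libraries lay above all 6 hESC libraries. COL4A1 had log2 fold changes of 2.39 in CDKO lines (SE 0.2, adjusted p = 4.61e-07) and 1.84 in CTRL lines (SE 0.2, adjusted p = 6.10e-06). COL4A2 (chromosome 13, 110305812 to 110513209, plus strand) stood at 364, 312 and 451 CPM in CDKO iMeLC and 411, 277 and 304 CPM in CTRL iMeLC, against 103, 90.6 and 113 CPM in CDKO hESC and 109, 109.8 and 107 CPM in CTRL hESC. For COL4A2, all 6 iMeLC libraries lay above all 6 hESC libraries. COL4A2 had log2 fold changes of 1.87 in CDKO lines (SE 0.16, adjusted p = 3.96e-07) and 1.61 in CTRL lines (SE 0.16, adjusted p = 2.06e-06). Per length the ratio of COL4A1 to COL4A2 was 1.55 ± 0.101 in CDKO iMeLC and 1.16 ± 0.0721 in CTRL iMeLC, against 1.08 ± 0.111 in CDKO hESC and 1 ± 0.053 in CTRL hESC. The ratio was therefore higher in the 3 CDKO iMeLC libraries (1.47 to 1.66) than in any other library (0.962 to 1.24). Antisense genes COL4A2-AS1 and COL4A2-AS2 overlap exons of COL4A2.

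COL18A1 (chromosome 21, 45405137 to 45513720) stood at 1004, 1021 and 1189.6 CPM in CDKO iMeLC and 1370.4, 719.8 and 623 CPM in CTRL iMeLC, against 181, 173 and 219 CPM in CDKO hESC and 242, 221 and 196 CPM in CTRL hESC. For COL18A1, all 6 iMeLC libraries lay above all 6 hESC libraries. COL18A1 had log2 fold changes of 2.49 in CDKO lines (SE 0.24, adjusted p = 1.48e-06) and 2.04 in CTRL lines (SE 0.24, adjusted p = 1.04e-05). Its exons overlap those of SLC19A1 on the other strand. COL4A5, the X-linked type IV chain of kidney and other epithelia, stood at 28.8, 26.5 and 32.3 CPM in CDKO iMeLC and 23.8, 29.5 and 27.2 CPM in CTRL iMeLC, against 11.1, 9.68 and 15.5 CPM in CDKO hESC and 15.3, 11.8 and 18 CPM in CTRL hESC. For COL4A5, all 6 iMeLC libraries lay above all 6 hESC libraries. COL4A5 had log2 fold changes of 1.27 in CDKO lines (SE 0.19, adjusted p = 6.70e-05) and 0.84 in CTRL lines (SE 0.18, adjusted p = 0.002). The neighbour COL4A6, whose start faces that of COL4A5, stood at 18.3, 14.6 and 21.7 CPM in CDKO iMeLC and 13.4, 15.2 and 19.1 CPM in CTRL iMeLC, against 7.22, 6.28 and 13.4 CPM in CDKO hESC and 10.2, 9.85 and 13 CPM in CTRL hESC. For COL4A6, the iMeLC libraries lay above the hESC libraries within each genotype. COL4A6 had log2 fold changes of 1.02 in CDKO lines (SE 0.26, adjusted p = 0.00443) and 0.53 in CTRL lines (SE 0.25, adjusted p = 0.103). COL4A5 passed in both genotypes and COL4A6 in CDKO lines. COL15A1, a relative of COL18A1, stood at 3.21, 2.15 and 1.52 CPM in CDKO iMeLC and 0.773, 0.696 and 0.753 CPM in CTRL iMeLC, against 0.506, 0.778 and 0.307 CPM in CDKO hESC and 0.769, 0.505 and 0.826 CPM in CTRL hESC. For COL15A1, the iMeLC libraries lay above the hESC libraries in CDKO lines and overlapped them in CTRL lines. COL15A1 had log2 fold changes of 2.09 in CDKO lines (SE 0.4, adjusted p = 0.000572) and 0.08 in CTRL lines (SE 0.38, adjusted p = 0.88). The 3 CDKO iMeLC libraries were the 3 highest of the 12. COL4A3, a chain of the glomerular membrane, stood at 0.579, 0.592 and 0.564 CPM in CDKO iMeLC and 0.398, 0.22 and 0.264 CPM in CTRL iMeLC, against 0.794, 0.486 and 0.973 CPM in CDKO hESC and 0.659, 0.505 and 0.642 CPM in CTRL hESC. For COL4A3, the iMeLC libraries overlapped the hESC libraries in CDKO lines and lay below them in CTRL lines. COL4A3 had log2 fold changes of -0.37 in CDKO lines (SE 0.39, adjusted p = 0.424) and -1.03 in CTRL lines (SE 0.4, adjusted p = 0.0463). That call was lost in most other settings, and its group means of 0.294 to 0.751 CPM were low. COL4A4 passed in neither genotype, with group means of 1.57 to 2.34 CPM.

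Of 11 laminin chains tested, 6 were higher and 1 lower in CDKO iMeLC than in hESC (32.1% and 27.7% of all genes). In CTRL iMeLC 8 were higher and 1 lower (29.5% and 19.9% of all genes). Among the alpha chains, LAMA5, the alpha chain of the laminin most used to grow stem cells, had the highest level and was not called. It stood at 204, 219 and 287 CPM in CDKO iMeLC and 281, 315 and 181 CPM in CTRL iMeLC, against 287, 264 and 295 CPM in CDKO hESC and 331, 317 and 386 CPM in CTRL hESC. For LAMA5, the iMeLC libraries overlapped the hESC libraries in CDKO lines and lay below them in CTRL lines. LAMA5 had log2 fold changes of -0.25 in CDKO lines (SE 0.18, adjusted p = 0.235) and -0.41 in CTRL lines (SE 0.18, adjusted p = 0.0691). LAMA1, the alpha chain of the earliest embryonic basement membranes, stood at 98.2, 80.2 and 117 CPM in CDKO iMeLC and 84, 89.6 and 99 CPM in CTRL iMeLC, against 40.2, 38 and 41.1 CPM in CDKO hESC and 46.7, 45 and 52.1 CPM in CTRL hESC. For LAMA1, all 6 iMeLC libraries lay above all 6 hESC libraries. LAMA1 had log2 fold changes of 1.31 in CDKO lines (SE 0.12, adjusted p = 1.24e-06) and 0.92 in CTRL lines (SE 0.12, adjusted p = 3.58e-05). The ratio of LAMA1 to LAMA5 per length was 0.377 ± 0.053 in CDKO iMeLC and 0.339 ± 0.133 in CTRL iMeLC, against 0.127 ± 0.00235 in CDKO hESC and 0.125 ± 0.0034 in CTRL hESC. Exons of LAMA5 overlap ADRM1 and LAMA5-AS1 on the other strand.

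LAMA2, the alpha chain of muscle, stood at 32.8, 34 and 27.6 CPM in CDKO iMeLC and 25.5, 27 and 44.7 CPM in CTRL iMeLC, against 6.28, 6.81 and 8.51 CPM in CDKO hESC and 5.72, 4.65 and 7.48 CPM in CTRL hESC. For LAMA2, all 6 iMeLC libraries lay above all 6 hESC libraries. LAMA2 had log2 fold changes of 2.12 in CDKO lines (SE 0.23, adjusted p = 4.56e-06) and 2.44 in CTRL lines (SE 0.23, adjusted p = 1.78e-06). LAMA4, the alpha chain of vessels and mesenchyme, stood at 13.9, 13 and 7.55 CPM in CDKO iMeLC and 5.6, 2.78 and 4.03 CPM in CTRL iMeLC, against 1.66, 0.973 and 2.25 CPM in CDKO hESC and 0.989, 1.87 and 1.1 CPM in CTRL hESC. For LAMA4, all 6 iMeLC libraries lay above all 6 hESC libraries. LAMA4 had log2 fold changes of 2.82 in CDKO lines (SE 0.38, adjusted p = 3.37e-05) and 1.64 in CTRL lines (SE 0.38, adjusted p = 0.00276). LAMA3, the alpha chain of epidermal laminin, passed in neither genotype, with group means of 1.94 to 2.44 CPM.

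The main beta chains moved in opposite directions with stage. LAMB1 (chromosome 7, 107923799 to 108003255, minus strand), the common embryonic beta chain, stood at 478, 425 and 447 CPM in CDKO iMeLC and 314, 217 and 249.5 CPM in CTRL iMeLC, against 142, 139 and 144 CPM in CDKO hESC and 132, 122 and 111 CPM in CTRL hESC. For LAMB1, all 6 iMeLC libraries lay above all 6 hESC libraries. LAMB1 had log2 fold changes of 1.67 in CDKO lines (SE 0.12, adjusted p = 8.60e-08) and 1.1 in CTRL lines (SE 0.12, adjusted p = 5.35e-06). LAMB2 (chromosome 3, 49121114 to 49133118, minus strand), the beta chain of synapses and the glomerulus, stood at 56.3, 62.2 and 63.3 CPM in CDKO iMeLC and 66.5, 68.8 and 49.2 CPM in CTRL iMeLC, against 77.9, 74.6 and 77.5 CPM in CDKO hESC and 91.7, 92.8 and 93.9 CPM in CTRL hESC. For LAMB2, all 6 iMeLC libraries lay below all 6 hESC libraries. LAMB2 had log2 fold changes of -0.34 in CDKO lines (SE 0.11, adjusted p = 0.0176) and -0.59 in CTRL lines (SE 0.11, adjusted p = 0.000572). The LAMB2 call in CDKO lines was lost without CDKO hESC 1, at -0.31 (adjusted p = 0.0636). Per length there was 6.29 ± 0.755 times as much LAMB1 as LAMB2 in CDKO iMeLC and 3.64 ± 0.863 times in CTRL iMeLC, against 1.56 ± 0.0189 times in CDKO hESC and 1.11 ± 0.11 times in CTRL hESC (SD, n = 3 each). Exons of LAMB1 overlap DLD on the other strand.

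Of the gamma chains, LAMC1, the partner in most laminins, stood at 436, 415 and 427 CPM in CDKO iMeLC and 415, 359.6 and 301 CPM in CTRL iMeLC, against 238, 205 and 219.8 CPM in CDKO hESC and 225, 239 and 193 CPM in CTRL hESC. For LAMC1, all 6 iMeLC libraries lay above all 6 hESC libraries. LAMC1 had log2 fold changes of 0.95 in CDKO lines (SE 0.11, adjusted p = 1.20e-05) and 0.71 in CTRL lines (SE 0.11, adjusted p = 0.000185). LAMC3, a minor gamma chain, and LAMB3, an epidermal beta chain, were far lower. LAMC3 stood at 12.2, 15.9 and 13.6 CPM in CDKO iMeLC and 30.3, 28.3 and 32.5 CPM in CTRL iMeLC, against 7.58, 8.32 and 9.02 CPM in CDKO hESC and 12.7, 16 and 13.8 CPM in CTRL hESC. For LAMC3, the iMeLC libraries lay above the hESC libraries within each genotype. LAMC3 had log2 fold changes of 0.74 in CDKO lines (SE 0.13, adjusted p = 0.000397) and 1.1 in CTRL lines (SE 0.13, adjusted p = 1.39e-05). LAMB3 stood at 0.891, 0.645 and 0.998 CPM in CDKO iMeLC and 2.54, 2.01 and 2.17 CPM in CTRL iMeLC, against 1.08, 0.438 and 0.564 CPM in CDKO hESC and 1.1, 0.707 and 0.826 CPM in CTRL hESC. For LAMB3, the iMeLC libraries overlapped the hESC libraries in CDKO lines and lay above them in CTRL lines. LAMB3 had log2 fold changes of 0.32 in CDKO lines (SE 0.36, adjusted p = 0.46) and 1.35 in CTRL lines (SE 0.34, adjusted p = 0.00526). LAMB4 did not pass the count filter, with at most 0.307 CPM in any library.

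**Figure D3:**
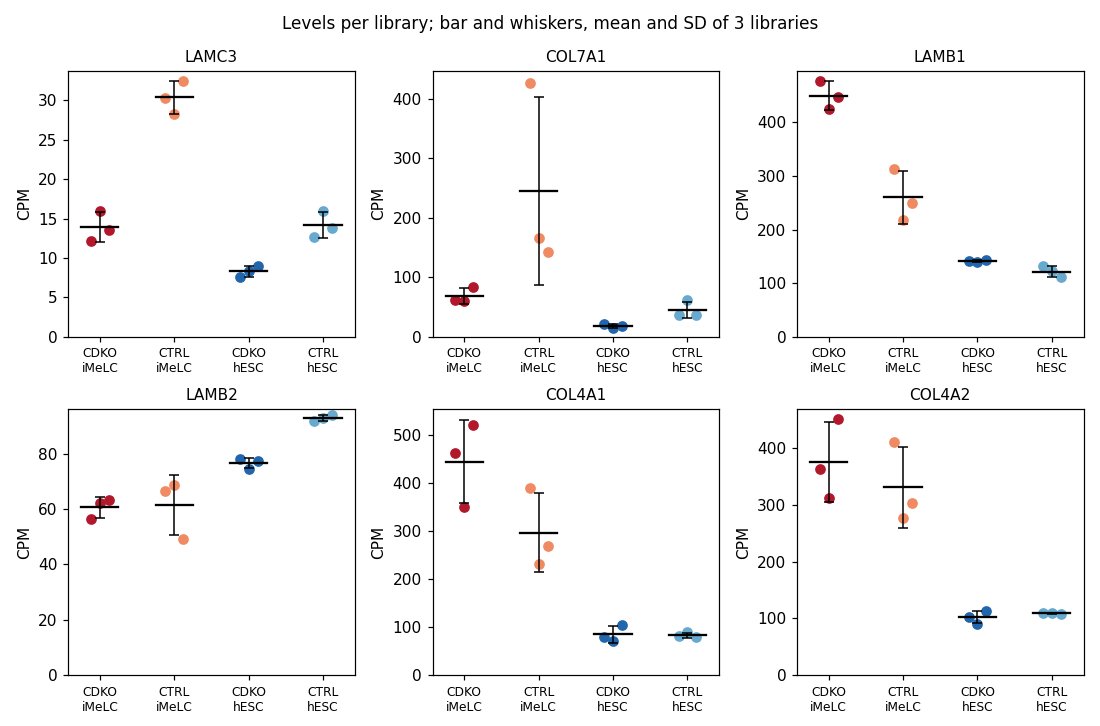
Levels (CPM, vertical axes from 0) of LAMC3, COL7A1, LAMB1, LAMB2, COL4A1 and COL4A2 in each of the 12 libraries, by group, with the mean and SD of 3 libraries. LAMC3 lay between 12.2 and 15.9 CPM in CDKO iMeLC and between 28.3 and 32.5 CPM in CTRL iMeLC, and LAMB2 was lower in every iMeLC library than in every hESC library.

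Fibril-associated collagens split in the same way in both genotypes, with 4 of 10 chains higher and 3 lower. Of all genes, 32.1% were higher and 27.7% lower in CDKO lines, and 29.5% and 19.9% in CTRL lines. Counts of this size do not mark out the class. COL12A1, which coats type I fibrils, stood at 66.1, 65.4 and 62.6 CPM in CDKO iMeLC and 107, 16.8 and 14.4 CPM in CTRL iMeLC, against 12.2, 13.8 and 10.2 CPM in CDKO hESC and 11.3, 7.98 and 8.72 CPM in CTRL hESC. For COL12A1, all 6 iMeLC libraries lay above all 6 hESC libraries. COL12A1 had log2 fold changes of 2.42 in CDKO lines (SE 0.6, adjusted p = 0.00367) and 2.3 in CTRL lines (SE 0.6, adjusted p = 0.00629). CTRL1101 iMeLC gave the highest COL12A1 level of all 12 libraries, and without it the CTRL value was 0.7 (SE 0.15, adjusted p = 0.00197). COL16A1 stood at 38.3, 35.8 and 26.8 CPM in CDKO iMeLC and 34.1, 16.6 and 16 CPM in CTRL iMeLC, against 7.66, 7.01 and 6.61 CPM in CDKO hESC and 10.1, 9.65 and 11.8 CPM in CTRL hESC. For COL16A1, all 6 iMeLC libraries lay above all 6 hESC libraries. COL16A1 had log2 fold changes of 2.25 in CDKO lines (SE 0.27, adjusted p = 1.01e-05) and 1.08 in CTRL lines (SE 0.25, adjusted p = 0.00343). COL14A1, a regulator of fibril diameter, stood at 29.3, 23.4 and 18.7 CPM in CDKO iMeLC and 24.5, 29.7 and 18.9 CPM in CTRL iMeLC, against 12.4, 12 and 10.2 CPM in CDKO hESC and 9.89, 12.7 and 8.03 CPM in CTRL hESC. For COL14A1, all 6 iMeLC libraries lay above all 6 hESC libraries. COL14A1 had log2 fold changes of 1.04 in CDKO lines (SE 0.21, adjusted p = 0.000945) and 1.26 in CTRL lines (SE 0.21, adjusted p = 0.000284). COL9A3, a type IX chain of cartilage fibrils, stood at 56.4, 51.9 and 62.1 CPM in CDKO iMeLC and 67.2, 51.1 and 27.8 CPM in CTRL iMeLC, against 27.2, 21.4 and 27.2 CPM in CDKO hESC and 24.2, 24.8 and 25.5 CPM in CTRL hESC. For COL9A3, all 6 iMeLC libraries lay above all 6 hESC libraries. COL9A3 had log2 fold changes of 1.17 in CDKO lines (SE 0.24, adjusted p = 0.000876) and 0.97 in CTRL lines (SE 0.23, adjusted p = 0.00383).

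The falling chains were COL9A1, COL20A1 and COL21A1. COL9A1, another type IX chain, stood at 2.52, 3.88 and 2.62 CPM in CDKO iMeLC and 2.87, 3.04 and 2.44 CPM in CTRL iMeLC, against 6.07, 8.32 and 9.43 CPM in CDKO hESC and 6.59, 6.01 and 10.4 CPM in CTRL hESC. For COL9A1, all 6 iMeLC libraries lay below all 6 hESC libraries. COL9A1 had log2 fold changes of -1.4 in CDKO lines (SE 0.26, adjusted p = 0.00049) and -1.46 in CTRL lines (SE 0.26, adjusted p = 0.000412). COL20A1 stood at 0.445, 0.434 and 0.709 CPM in CDKO iMeLC and 0.515, 1.12 and 0.548 CPM in CTRL iMeLC, against 1.81, 1.8 and 2.77 CPM in CDKO hESC and 1.98, 2.53 and 2.84 CPM in CTRL hESC. For COL20A1, all 6 iMeLC libraries lay below all 6 hESC libraries. COL20A1 had log2 fold changes of -2 in CDKO lines (SE 0.38, adjusted p = 0.000581) and -1.75 in CTRL lines (SE 0.37, adjusted p = 0.00148). COL21A1 stood at 1.91, 2.28 and 1.95 CPM in CDKO iMeLC and 2.5, 3.86 and 1.4 CPM in CTRL iMeLC, against 5.2, 5.69 and 3.95 CPM in CDKO hESC and 4.89, 6.57 and 4.68 CPM in CTRL hESC. For COL21A1, all 6 iMeLC libraries lay below all 6 hESC libraries. COL21A1 had log2 fold changes of -1.27 in CDKO lines (SE 0.32, adjusted p = 0.00429) and -1.06 in CTRL lines (SE 0.31, adjusted p = 0.0137). The COL21A1 call in CTRL lines was lost without CTRL hESC 2, at -0.87 (adjusted p = 0.066). COL9A2 and COL19A1 passed in neither genotype. COL22A1, found at tissue junctions, was the most uneven member within groups, at 0.0445, 7.87 and 14.9 CPM in CDKO iMeLC and 0.117, 0.058 and 0.00978 CPM in CTRL iMeLC, against 0.289, 3.41 and 4 CPM in CDKO hESC and 0.055, 1.21 and 0.413 CPM in CTRL hESC. It passed neither stage test, and the highest and lowest libraries of a group were far apart in each of the 4 groups.

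In the beaded filament, short-chain and anchoring class 3 of 9 chains were higher and 1 lower in both genotypes. The shares over all genes were 32.1% higher and 27.7% lower in CDKO lines, and 29.5% and 19.9% in CTRL lines. A count near these shares does not mark out a class. COL6A3, the long chain of type VI collagen, stood at 114, 103 and 65.1 CPM in CDKO iMeLC and 55.8, 12.2 and 22.9 CPM in CTRL iMeLC, against 9.53, 5.06 and 3.95 CPM in CDKO hESC and 10.3, 6.16 and 4.17 CPM in CTRL hESC. For COL6A3, all 6 iMeLC libraries lay above all 6 hESC libraries. COL6A3 had log2 fold changes of 3.96 in CDKO lines (SE 0.55, adjusted p = 4.06e-05) and 2.15 in CTRL lines (SE 0.51, adjusted p = 0.0036). Without CTRL1101 iMeLC the CTRL value of COL6A3 was 1.32 (adjusted p = 0.016). COL6A2 stood at 269, 283 and 279.6 CPM in CDKO iMeLC and 232, 213 and 362 CPM in CTRL iMeLC, against 102, 107 and 143 CPM in CDKO hESC and 106, 107 and 119 CPM in CTRL hESC. For COL6A2, all 6 iMeLC libraries lay above all 6 hESC libraries. COL6A2 had log2 fold changes of 1.24 in CDKO lines (SE 0.18, adjusted p = 5.48e-05) and 1.28 in CTRL lines (SE 0.18, adjusted p = 5.15e-05). Their partner COL6A1 stood at 256, 276 and 262 CPM in CDKO iMeLC and 227, 252 and 380 CPM in CTRL iMeLC, against 217, 232 and 248 CPM in CDKO hESC and 205, 251 and 196 CPM in CTRL hESC. For COL6A1, the iMeLC libraries lay above the hESC libraries in CDKO lines and overlapped them in CTRL lines. COL6A1 had log2 fold changes of 0.19 in CDKO lines (SE 0.16, adjusted p = 0.325) and 0.4 in CTRL lines (SE 0.16, adjusted p = 0.0542). The 3 chains form 1 trimer, and per length the ratio of COL6A1 to COL6A2 was 0.961 ± 0.021 in CDKO iMeLC and 1.08 ± 0.104 in CTRL iMeLC, against 2.02 ± 0.245 in CDKO hESC and 1.99 ± 0.363 in CTRL hESC. The ratio of COL6A3 to COL6A1 was 0.097 ± 0.0272 in CDKO iMeLC and 0.0321 ± 0.0301 in CTRL iMeLC, against 0.00741 ± 0.00403 in CDKO hESC and 0.0087 ± 0.0043 in CTRL hESC (SD, n = 3 each).

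COL7A1, the chain of the anchoring fibrils that tie epithelium to dermis, stood at 61.5, 59.4 and 83.5 CPM in CDKO iMeLC and 427, 166 and 142 CPM in CTRL iMeLC, against 21.4, 15.3 and 18.1 CPM in CDKO hESC and 37.4, 61.2 and 36.6 CPM in CTRL hESC. For COL7A1, the iMeLC libraries lay above the hESC libraries within each genotype. COL7A1 had log2 fold changes of 1.9 in CDKO lines (SE 0.37, adjusted p = 0.000652) and 2.44 in CTRL lines (SE 0.36, adjusted p = 9.96e-05). The CTRL value of COL7A1 without CTRL1101 iMeLC was 1.73 (adjusted p = 3.33e-05). COL8A2, a short-chain collagen of the cornea, stood at 0.534, 0.448 and 0.839 CPM in CDKO iMeLC and 0.492, 1.14 and 0.91 CPM in CTRL iMeLC, against 3.39, 2.87 and 2.77 CPM in CDKO hESC and 2.47, 2.78 and 3.62 CPM in CTRL hESC. For COL8A2, all 6 iMeLC libraries lay below all 6 hESC libraries. COL8A2 had log2 fold changes of -2.3 in CDKO lines (SE 0.36, adjusted p = 0.000105) and -1.8 in CTRL lines (SE 0.34, adjusted p = 0.000697). COL8A1 stood at 3.9, 4.65 and 3.63 CPM in CDKO iMeLC and 8.32, 1.64 and 1.43 CPM in CTRL iMeLC, against 4.77, 3.75 and 4.61 CPM in CDKO hESC and 5.22, 3.39 and 1.93 CPM in CTRL hESC, and its CTRL difference of 0.12 (SE 0.57, adjusted p = 0.88) turned to -1.23 (adjusted p = 0.00929) without CTRL1101 iMeLC. COL6A6, COL10A1 and COL28A1 passed in neither genotype, and COL6A5 did not pass the count filter of the stage test. These 4 genes had group means of 0.0605 to 0.687 CPM.

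Of the 5 transmembrane and other chains, COL26A1 was higher in both genotypes and COL17A1, a hemidesmosome collagen, in CTRL lines. COL26A1 stood at 45.5, 45.8 and 53.3 CPM in CDKO iMeLC and 64.6, 53 and 49.6 CPM in CTRL iMeLC, against 26, 26.6 and 31.1 CPM in CDKO hESC and 33.6, 36.8 and 32.3 CPM in CTRL hESC. For COL26A1, all 6 iMeLC libraries lay above all 6 hESC libraries. COL26A1 had log2 fold changes of 0.79 in CDKO lines (SE 0.12, adjusted p = 8.52e-05) and 0.7 in CTRL lines (SE 0.12, adjusted p = 0.000263). COL17A1 stood at 2.58, 2.2 and 3.07 CPM in CDKO iMeLC and 8.04, 2.74 and 3.14 CPM in CTRL iMeLC, against 1.73, 2.43 and 2.97 CPM in CDKO hESC and 0.934, 1.87 and 1.38 CPM in CTRL hESC. For COL17A1, the iMeLC libraries overlapped the hESC libraries in CDKO lines and lay above them in CTRL lines. COL17A1 had log2 fold changes of 0.13 in CDKO lines (SE 0.4, adjusted p = 0.798) and 1.73 in CTRL lines (SE 0.42, adjusted p = 0.00385). That CTRL value of COL17A1 was 1.03 without CTRL1101 iMeLC (adjusted p = 0.0156). The transmembrane collagens COL23A1, COL25A1 and COL13A1 were not called. COL23A1 stood at 13, 8.41 and 19 CPM in CDKO iMeLC and 5.7, 7.49 and 11.5 CPM in CTRL iMeLC, against 7.66, 8.08 and 8.92 CPM in CDKO hESC and 4.78, 5.41 and 6.56 CPM in CTRL hESC. COL25A1 stood at 6.68, 8.53 and 7.13 CPM in CDKO iMeLC and 10, 10.2 and 10.7 CPM in CTRL iMeLC, against 10.3, 8.9 and 8.15 CPM in CDKO hESC and 8.46, 10.4 and 10.1 CPM in CTRL hESC. COL13A1 stood at 6.15, 4.98 and 6.61 CPM in CDKO iMeLC and 4.99, 3.2 and 9.79 CPM in CTRL iMeLC, against 3.25, 4.28 and 7.99 CPM in CDKO hESC and 3.35, 1.36 and 5.14 CPM in CTRL hESC. Their log2 fold changes ranged from -0.29 (COL25A1, SE 0.15) to 0.71 (COL23A1, SE 0.29) in CDKO lines and from 0.09 (COL25A1, SE 0.15) to 0.86 (COL13A1, SE 0.48) in CTRL lines.

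**Figure D4:**
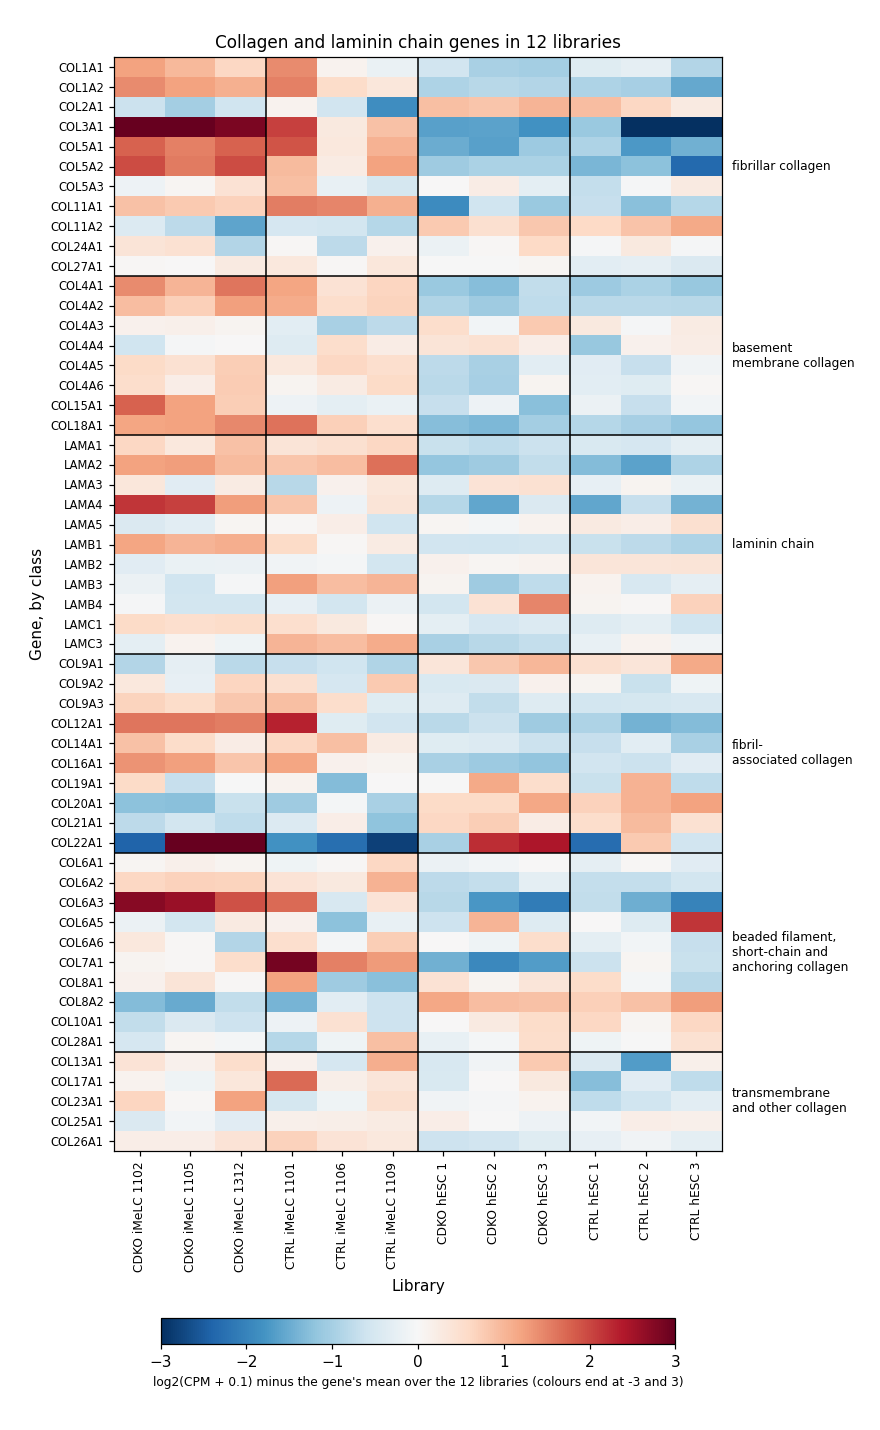
Log2(CPM + 0.1) of the members (rows, by class) in each of the 12 libraries (columns), minus the mean of that gene over the 12 libraries, with red above and blue below the mean and colours that saturate at a distance of 3. The iMeLC columns of both genotypes are red over most fibrillar and basement membrane chains, and LAMC3 and LAMB3 are redder in CTRL iMeLC than in any other group.

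The genes that fold, process and bind these chains were measured in the same fits. Over all genes tested, 32.1% were higher and 27.7% lower in CDKO lines, and 29.5% and 19.9% in CTRL lines. A count near these shares does not mark out a list. Of 20 genes of collagen folding and hydroxylation, 15 were higher and 1 lower in CDKO iMeLC, and 13 higher and none lower in CTRL iMeLC, than in hESC. Those with the smallest adjusted p were MIA2 (2.88 and 2.61), a factor in the export of large cargo, PLOD1 (1.7 and 1.3), a lysyl hydroxylase, P4HA1 (2.31 and 2.32), a prolyl hydroxylase subunit, and P3H1 (0.87 and 0.96), a prolyl 3-hydroxylase complex member, with log2 fold changes in CDKO and in CTRL lines. FKBP10, a chaperone of procollagen, was the gene that was lower in CDKO lines. The list summed to 2599.9 to 2750.1 CPM in CDKO iMeLC and 2203 to 2414 CPM in CTRL iMeLC, against 1736 to 1825 CPM in CDKO hESC and 1537 to 1775 CPM in CTRL hESC. Of 14 genes of collagen processing and crosslinking, 8 were higher and none lower in each genotype, among them LOXL2 (1.86 and 1.24), a lysyl oxidase, BMP1 (2.81 and 1.67), a procollagen proteinase, TLL2 (1.9 and 2.3), a relative of BMP1, PCOLCE2 (1.61 and 1.54), an enhancer of procollagen proteinases, and PXDN (0.63 and 0.7), the peroxidase that crosslinks type IV collagen. These summed to 703 to 715 CPM in CDKO iMeLC and 510.3 to 712 CPM in CTRL iMeLC, against 393 to 423 CPM in CDKO hESC and 332 to 408 CPM in CTRL hESC.

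Of 13 receptors of collagen and laminin, 3 were higher and 3 lower in each genotype. That was a smaller share than the 59.8% (CDKO lines) and 49.4% (CTRL lines) of all genes called either way. Higher were ITGB1 (1.77 and 1.44), the common beta subunit of the integrins, ITGA3 (1.44 and 1.24), a laminin receptor subunit, and DDR2 (3.81 and 2.87), a receptor kinase for fibrillar collagen, while DDR1 (-0.7 and -0.65), its epithelial relative, was lower, as were DAG1 and BCAM, receptors of laminin alpha chains. Receptors summed to 1242 to 1270.3 CPM in CDKO iMeLC and 994 to 1288 CPM in CTRL iMeLC, against 968 to 1039 CPM in CDKO hESC and 976 to 1077 CPM in CTRL hESC. Of 15 basement membrane partners, 8 were higher and 3 lower in CDKO lines and 6 higher and 1 lower in CTRL lines. Foremost by adjusted p were FBLN1 (1.6 and 1.5), a fibulin, FN1 (2.77 and 2.13), fibronectin, SPARC (1.71 and 1.38), a collagen-binding chaperone, and FREM2 (-1.36 and -1.28), which was lower. The partners summed to 2098 to 2510 CPM in CDKO iMeLC and 1485 to 1878 CPM in CTRL iMeLC, against 915 to 1065 CPM in CDKO hESC and 992 to 1079 CPM in CTRL hESC. Of 14 matrix proteases and inhibitors, 7 were higher and 2 lower in CDKO lines and 5 higher and 4 lower in CTRL lines, led by TIMP1 (2.09 and 1.78), an inhibitor, and MMP2 (3.4 and 2.81), a gelatinase, while MMP11 (-1.71 and -1.68), a stromelysin, was lower in both. The proteases and inhibitors summed to 665 to 829 CPM in CDKO iMeLC and 379 to 542 CPM in CTRL iMeLC, against 349.7 to 382 CPM in CDKO hESC and 327 to 373 CPM in CTRL hESC.

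Markers of other cell types moved with stage too, where 59.8% of all genes were called either way in CDKO lines and 49.4% in CTRL lines. Of 13 fibroblast or feeder markers tested, 11 were higher and 1 lower in CDKO iMeLC, and 9 higher and 1 lower in CTRL iMeLC, than in hESC, and none of the 14 on the list was without counts in a whole group. PDGFRA stands on both this list and the mesoderm list. POSTN (3.57 and 3.15), PRRX1 (4.26 and 3.88), FBN1 (4.18 and 2.71) and S100A4 (4.6 and 3.51) led. The fibroblast list summed to 738 to 876 CPM in CDKO iMeLC and 278 to 770.4 CPM in CTRL iMeLC, against 459 to 554 CPM in CDKO hESC and 310.3 to 498 CPM in CTRL hESC. A few genes of high level held most of that sum. Endoderm markers (5 of 10 tested higher in CDKO lines and 4 of 10 in CTRL lines, none lower, with GATA4 (3.29 and 3.61) higher in both) summed to 724 to 1588 CPM in CDKO iMeLC and 51.5 to 484 CPM in CTRL iMeLC, against 45.9 to 511 CPM in CDKO hESC, where hESC 3 gave the highest value, and 24 to 83 CPM in CTRL hESC. TTR had no count in CTRL iMeLC. Mesoderm and primitive streak markers (6 of 10 higher and 1 lower in CDKO lines, 5 higher and 1 lower in CTRL lines, led by TBXT (4.23 and 5.83) and KDR (0.85 and 0.66)) summed to 579 to 814 CPM in CDKO iMeLC and 268 to 812 CPM in CTRL iMeLC, against 151 to 253 CPM in CDKO hESC and 139.8 to 165 CPM in CTRL hESC, and MSGN1 had no count in CDKO hESC. Of 11 stem cell markers, 9 were lower in each genotype, led by SALL4 (-0.73 and -0.73) and DNMT3B (-1.1 and -0.87). Amnion markers (1 of 8 higher and 1 lower in CDKO lines, 2 lower in CTRL lines, VTCN1 (-3.87 and -3.77) lower in both) summed to at most 41.4 CPM in any library, and neural markers (2 of 7 higher and 2 lower in CDKO lines, 2 lower in CTRL lines, DCX (-2.58 and -2.22) first) summed to 670.2 to 819.9 CPM in CDKO iMeLC and 439 to 908 CPM in CTRL iMeLC, against 626 to 663 CPM in CDKO hESC and 502 to 653 CPM in CTRL hESC. The part of other cell types in the collagen and laminin differences was not tested.

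Few members were called between genotypes in hESC. Within that stage, 6 libraries and 17222 genes entered edgeR's quasi-likelihood test, 51 members were tested, and 2 were called, LAMC3 and COL7A1, both lower in CDKO. Over all genes 0.598% were higher, 0.714% lower and 1.31% called either way, against 3.92% of the members. DESeq2 called 3 of 51, these and COL27A1, where it called 3.57% of all genes. At an unadjusted p under 0.05 edgeR gave 15 of 51 members, 7 higher and 8 lower, and 16.1% of all genes. LAMC3 (chromosome 9, 131009082 to 131094473) stood at 7.58, 8.32 and 9.02 CPM in CDKO hESC, against 12.7, 16 and 13.8 CPM in CTRL hESC. LAMC3 differed by -0.76 on the log2 scale (SE 0.14, adjusted p = 0.0358). COL7A1 (chromosome 3, 48564073 to 48595267) stood at 21.4, 15.3 and 18.1 CPM in CDKO hESC, against 37.4, 61.2 and 36.6 CPM in CTRL hESC, which is -1.3 on the log2 scale (SE 0.2, adjusted p = 0.0193). Every CDKO library was below every CTRL library for both genes. Neither call held in every alternative: without any 1 of the CDKO libraries neither gene passed, with adjusted p for COL7A1 of 0.0653, 0.115 and 0.0902 and for LAMC3 of 0.158, 0.168 and 0.0902 without CDKO hESC 1, 2 and 3, and LAMC3 also missed the threshold without CTRL hESC 1 (adjusted p = 0.0574) or 2 (adjusted p = 0.0501). With all 12 libraries in the fit COL7A1 was at -1.31 (SE 0.37, adjusted p = 0.195). Fold changes kept their sign in every setting tried, between -0.67 and -0.84 for LAMC3 and between -1.02 and -1.43 for COL7A1. Without CDKO hESC 3, the library with the high endoderm marker sum, 0.232% of all genes and no member were called.

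No other member passed in hESC. The median log2 fold change of the members tested was 0.03, beside 0 over all genes. By class it was 0.14 for the 11 fibrillar chains, -0.13 for the 8 basement membrane chains and 0.02 for the 11 laminin chains tested. The libraries of the genotypes did not overlap for 13 members (6 higher and 7 lower in CDKO), 25.5% of those tested, beside 22% of all genes. Near the threshold were COL27A1, at 80.9, 81.8 and 85.6 CPM in CDKO hESC, against 65.9, 68.2 and 60.4 CPM in CTRL hESC (log2 fold change 0.36, SE 0.07, adjusted p = 0.0506), and LAMB2, at 77.9, 74.6 and 77.5 CPM in CDKO hESC, against 91.7, 92.8 and 93.9 CPM in CTRL hESC (-0.27, SE 0.07, adjusted p = 0.0981). COL10A1, COL19A1, COL6A5, COL6A6 and LAMB4 did not pass the count filter in hESC.

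In iMeLC 1 of 53 members was called, LAMC3, lower in CDKO, 1.89% of the members, where 0.08% of the 19999 genes tested were higher, 0.265% lower and 0.345% called either way. DESeq2 called 10 of 54, with 6 higher (LAMA4, LAMB1, COL15A1, COL5A2, COL22A1 and COL3A1) and 4 lower (LAMC3, LAMB3, COL11A1 and COL7A1), where it called 7.21% of all genes. In iMeLC an unadjusted p under 0.05 by edgeR was found for 12 of 53 members, 7 higher and 5 lower, and for 19.8% of all genes. LAMC3 stood at 12.2, 15.9 and 13.6 CPM in CDKO, against 30.3, 28.3 and 32.5 CPM in CTRL, which is -1.16 on the log2 scale (SE 0.13, adjusted p = 0.0174), and its CDKO and CTRL libraries did not overlap. The value lay between -1.08 and -1.25 in every setting, but the call was lost without CTRL1109 iMeLC (adjusted p = 0.0512), CDKO1102 iMeLC (0.124), CDKO1105 iMeLC (0.0637) or CDKO1312 iMeLC (0.133). Relative to LAMC1 per length, LAMC3 was at 0.0362 ± 0.00569 in CDKO iMeLC and 0.0959 ± 0.0209 in CTRL iMeLC, and at 0.0419 ± 0.00572 in CDKO hESC and 0.072 ± 0.00846 in CTRL hESC. LAMC3 was thus the member called at both stages, in separate libraries of what the labels give as the same lines.

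COL7A1 stood at 61.5, 59.4 and 83.5 CPM in CDKO, against 427, 166 and 142 CPM in CTRL, which is -1.87 on the log2 scale (SE 0.4, adjusted p = 0.106). All CDKO libraries were below all CTRL libraries, but CTRL1101 iMeLC was far above the other CTRL libraries, and the spread within CTRL was wide. Without that library the value was -1.2 (SE 0.16, adjusted p = 0.0108). LAMB1 stood at 478, 425 and 447 CPM in CDKO, against 314, 217 and 249.5 CPM in CTRL (log2 fold change 0.76, SE 0.13, adjusted p = 0.0785), LAMB3 at 0.891, 0.645 and 0.998 CPM in CDKO, against 2.54, 2.01 and 2.17 CPM in CTRL (-1.44, SE 0.29, adjusted p = 0.101), COL3A1 at 166, 115 and 79.9 CPM in CDKO, against 46.3, 13.6 and 20.7 CPM in CTRL (2.14, SE 0.45, adjusted p = 0.106) and COL15A1 at 3.21, 2.15 and 1.52 CPM in CDKO, against 0.773, 0.696 and 0.753 CPM in CTRL (1.59, SE 0.34, adjusted p = 0.107). For these 4 genes the genotypes did not overlap and the test was not passed. In all, libraries did not overlap for 13 members (8 higher and 5 lower in CDKO), 24.5% of those tested, beside 26.5% of all genes. The median log2 fold change was 0.08 over the members and -0.03 over all genes, and by class 0.25 for fibrillar, 0.19 for basement membrane and 0.05 for laminin chains. COL10A1, COL22A1 and LAMB4 did not pass the edgeR count filter in iMeLC; for COL22A1 only CDKO1105 and CDKO1312 had more than 10 counts.

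CTRL1101 iMeLC stood apart from the other CTRL iMeLC libraries in several matrix genes, with COL1A1, COL1A2, COL5A1 and COL12A1 above all CDKO iMeLC libraries. COL12A1 was at 66.1, 65.4 and 62.6 CPM in CDKO iMeLC, against 107 CPM in CTRL1101 iMeLC and 16.8 and 14.4 CPM in the other CTRL iMeLC libraries. The fibroblast marker sum of CTRL1101 iMeLC, 770.4 CPM, lay within the CDKO range of 738 to 876 CPM and above the 278 and 393 CPM of the other CTRL libraries, and its endoderm marker sum of 235 CPM lay between their 51.5 and 484 CPM. TAGLN alone gave 459.8 CPM of the fibroblast sum. Single fibroblast markers of CTRL1101 iMeLC went both ways: PRRX1 (20.2 CPM) lay below all CDKO iMeLC libraries and POSTN (4.89 CPM) above them. The part of that library's cell make-up in the results was not tested. Without it 17 of 54 members tested were called, 14 higher and 3 lower in CDKO, where 7.1% of all genes were higher and 5.69% lower (12.8% either way). Leaving out each library in turn was part of the design, whereas this library was singled out after its values were seen. Higher without it were the fibrillar chains COL1A1, COL1A2, COL3A1 and COL5A1, the basement membrane chains COL4A1, COL15A1 and COL18A1, the laminin chains LAMA4, LAMB1 and LAMC1, and COL12A1, COL16A1, COL6A3 and COL8A1. Lower were LAMB3, LAMC3 and COL7A1. For COL12A1 the log2 fold change was 2.02 (SE 0.1, adjusted p = 0.000945) without the library and 0.47 (SE 0.69, adjusted p = 0.727) with it, for COL3A1 2.78 (SE 0.34, adjusted p = 0.00952) and 2.14, for COL6A3 2.39 (SE 0.34, adjusted p = 0.0124) and 1.61, and for LAMB1 0.92 (SE 0.09, adjusted p = 0.00557) and 0.76. With 2 CTRL libraries left, these values rest on a narrow estimate of the CTRL spread.

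**Figure D5:**
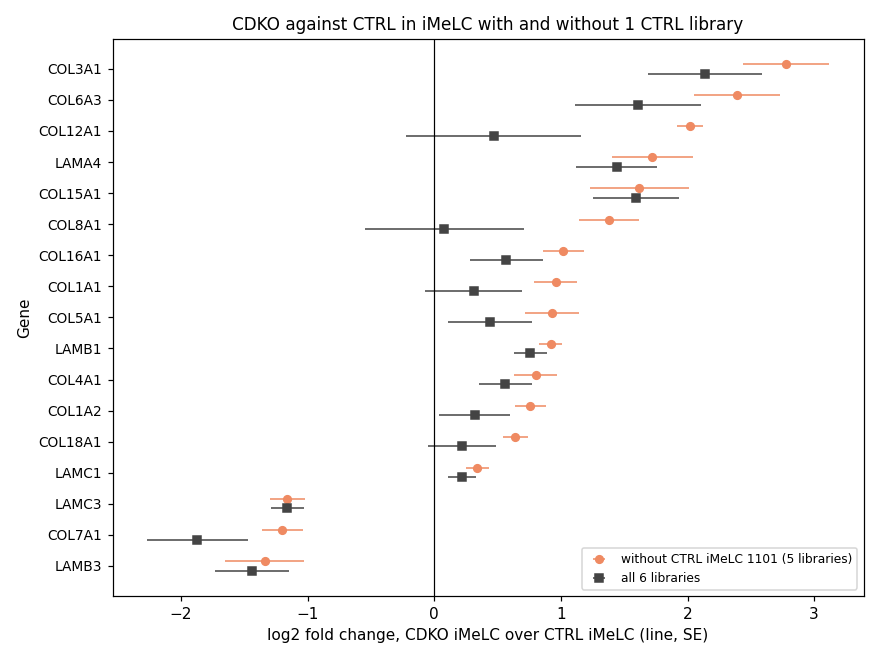
Log2 fold change, CDKO iMeLC over CTRL iMeLC (horizontal axis, lines are SE), of the 17 members with an adjusted p under 0.05 once CTRL1101 iMeLC was left out (orange circles), beside the values from all 6 libraries (dark squares). LAMC3 was at -1.16 both ways, while COL12A1 was at 2.02 without and 0.47 with that library.

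No gene of the 5 pathway lists or the 6 marker lists was called between genotypes at either stage. Among genes with a mean of at least 1 CPM in a group compared, those with the largest fold change of their list in hESC were COLGALT2 (log2 fold change 0.88, adjusted p = 0.191), PCOLCE (-0.56, 0.18), DDR2 (0.72, 0.365), NTN4 (0.73, 0.336) and TIMP4 (1.3, 0.172) of the pathway lists and PRRX1 (1.41, 0.115), FOXA2 (2.56, 0.169), GSC (2.31, 0.195), TFAP2A (-1.49, 0.328), TDGF1 (0.42, 0.0846) and POU3F2 (-0.32, 0.706) of the marker lists. By the same rule, in iMeLC these were P3H2 (log2 fold change 1.09, adjusted p = 0.165), LOXL4 (1.97, 0.112), ITGA11 (1.73, 0.155), FREM1 (1.29, 0.174) and TIMP2 (1.34, 0.128) of the pathway lists and LUM (2.76, 0.0785), CXCR4 (2.51, 0.104), TBX6 (-1.4, 0.153), TFAP2A (1.41, 0.251), SOX2 (-0.42, 0.477) and OTX2 (1.18, 0.098) of the marker lists. The fibroblast list had all 14 genes tested on the side of CDKO in iMeLC, with a median log2 fold change of 1.01, and the endoderm list all 10, with a median of 1.83. The amnion list likewise had all 7 on that side, with a median of 1. So were 7 of 10 mesoderm and primitive streak markers (median 0.73), 5 of 7 neural markers (0.27) and 7 of 11 stem cell markers (0.13). The median over all genes was -0.03. Without CTRL1101 iMeLC, 10 of the 14 fibroblast markers passed as higher and none of the 10 endoderm markers did, where 7.1% of all genes were higher. With that library in the fit 0.08% of all genes were higher. CTRL1101 iMeLC was singled out after its values were seen, and its fibroblast marker sum was above those of the other CTRL iMeLC libraries.

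The interaction term over the 12 libraries tested whether CDKO and CTRL lines differed by stage to an unequal extent, and an offset between the count tables that both genotypes share drops out of it. None of 54 members was called by edgeR's quasi-likelihood test, where 0.0148% of all genes were higher, 0.00494% lower and 0.0197% called either way, and DESeq2 called none, where it called 1.05% of all genes. At an unadjusted p under 0.05 there were 9 members by edgeR, which gave 11.2% of all genes, and 10 by DESeq2, and the smallest adjusted p was 0.266 by edgeR and 0.07 by DESeq2. The edgeR value belonged to COL15A1, with an interaction of 2.01 (SE 0.55) on the log2 scale. For LAMB1 the interaction was 0.57 (SE 0.17, adjusted p = 0.28), for COL27A1 -0.48 (SE 0.14, adjusted p = 0.28), for LAMC3 -0.36 (SE 0.19, adjusted p = 0.503) and for COL7A1 -0.54 (SE 0.5, adjusted p = 0.731). Without CTRL1101 iMeLC, 6 of 52 members were called, all higher (1.39% of all genes, 2.33% either way): COL12A1 at 1.65 (SE 0.21, adjusted p = 0.0096), COL16A1 at 1.6 (SE 0.21, adjusted p = 0.0121), LAMB1 at 0.71 (SE 0.12, adjusted p = 0.0206), COL18A1 at 0.85 (SE 0.17, adjusted p = 0.0322), COL1A1 at 1.33 (SE 0.27, adjusted p = 0.0354) and COL6A3 at 2.57 (SE 0.57, adjusted p = 0.0422). Without CDKO hESC 3 as well, the library with the high endoderm marker sum, 4 of these were called (0.794% of all genes), COL12A1, COL16A1, LAMB1 and COL18A1. Both libraries were singled out after their values were seen, and 2 CTRL iMeLC libraries were left. CTRL1101 iMeLC had the highest CTRL iMeLC level of each of the 6 genes. Leaving it out therefore raises their interaction, and these calls are no independent result.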

How the data were processed

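Total RNA from cell pellets or sorted cells was extracted with a column kit and made into stranded total RNA libraries, per the labels' protocols. The deposited values are whole-number counts per gene symbol, in a table for each stage. Per the submitters' processing notes, FastQC, cutadapt and edgeR were used with build GRCh38, while no source used here gives the aligner, the counter, the annotation or the strand setting. The hESC columns give the genotype but not the line. Nothing states that libraries came from separate cultures, so p-values measure only the spread between these samples.

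From the counts, edgeR 4.0.16 (R 4.3.3) gave TMM scaling, the filterByExpr filter and quasi-likelihood tests, with Benjamini-Hochberg adjustment over all genes tested and a threshold of 0.05. Genotypes were compared within each stage (6 libraries), and stages and the interaction over 12 libraries. Tests were checked on simulated data. Printed CPM are TMM-scaled over 12 libraries, and RPKM use merged exons of GENCODE release 29. Alternatives were RLE scaling, DESeq2 1.42.0, no filter, other sets of libraries, each library left out, and the longest transcript. Total counts per library, given in the report, limit precision, more so in hESC.

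The members and the gene lists were chosen with earlier results of these data known. Named were all called members, the 4 highest chains of each class per length, and in each list the genes with the smallest adjusted p or, where none was called, the largest fold change among genes with a mean of at least 1 CPM in a group compared. COL8A1, COL22A1 and the members near a threshold were added after their values were seen, as was leaving out both libraries that stood apart. A member and a marker gene entered the counts and sums but are not reported here by name, nor drawn in the plots of single genes.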

Additional observations from a re-analysis of the deposited data

How the results depend on the processing

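No paired analysis was possible because the hESC columns carry no line number, so that libraries cannot be matched across the stages, and the lines of the genotypes share no number. Of 33 and 36 stage calls in CDKO and CTRL lines, 32 and 32 were kept in every alternative tried. COL8A1 in CTRL lines turned to -1.23 without CTRL1101 iMeLC and to -1.19 without both libraries that stood apart, and was at most 0.54 with any other library left out. Between genotypes in hESC, 2 members were called (1.31% of all genes), against 9 with no filter (3.62%), 1 with all 12 libraries in the fit (0.355%) and 0 to 3 without 1 library (0.0283% to 2.78%). In iMeLC 1 was called (0.345% of all genes), against 7 with no filter (1.37%), 10 by DESeq2 (7.21%), 9 with all 12 libraries in the fit (6.47%) and 0 to 17 without 1 library (0.072% to 12.8%). The interaction gave 0 calls, against 0 to 6 without 1 library and 4 without both libraries. The cause was not tested. With the longest transcript as gene length, the share of fibrillar chains was 13.9% in CDKO hESC, that of basement membrane collagens 33.6% in CDKO iMeLC, 18.1% in CDKO hESC and 19.4% in CTRL hESC, and that of laminins 21.4% in CDKO iMeLC, 30.4% in CDKO hESC and 31% in CTRL hESC. RLE scaling moved the median of all genes by less than 0.1 on the log2 scale. Depth limits the hESC values of members under about 1 CPM.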
